A study of Mus musculus with 4 samples.

Results

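Clusterin and 8 other genes known from fetal and regenerating intestinal epithelium (Clu, Anxa1, Anxa3, Msln, Il33, Gja1, Spp1, Ly6a and Sprr1a) were followed across the arrays of an Apc recombination experiment in organoids of mouse intestine, which are cultures of epithelium embedded in Matrigel. Members were the probe sets whose annotated symbol was exactly one of these names. This gave 16 probe sets of 7 genes, out of 18193 genes with a probe set of their own. Spp1 and Ly6a are not analysed here. The genes were selected on their link to this epithelial state with the 4OHT differences of Clu, Anxa1 and Msln on these same arrays already known. Every member value below is therefore a description and carries no test.

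All organoids were Apc fl/fl, that is, both alleles of Apc were flanked by recombination sites. The Apc protein holds together the machinery that tags beta-catenin for destruction and so restrains Wnt signalling. The 4 groups were untreated organoids at day 4, organoids at day 4 whose recombination had been induced by 24 h of 4-hydroxytamoxifen (4OHT), and the same 2 arms at day 6. The labels call the 4OHT organoids Apc-deficient and the untreated ones normal. The recombinase and its promoter, the age and strain of the mice and any vehicle given to the untreated arm are not stated, and none of the arrays shows the effect of 4OHT on cells with unfloxed alleles. Each group was 1 Affymetrix expression array, so there was no spread between replicates, the number of arrays limits the precision, and no p-value or error is given.

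When the intestinal epithelium is injured, its cells can pass through a state that resembles the fetal gut and switch on genes that are quiet in the resting crypt. Clu marks rare cells that expand after injury, and Anxa1, Ly6a, Il33, Gja1, Spp1 and Msln have been used as markers of fetal or repairing epithelium. Sprr1a belongs to a family of small proline-rich proteins better known from squamous epithelium that are also induced by injury in other tissues.

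The deposited intensities ran from 2.73 to 23910.3. A gene was represented by its brightest probe set, and differences are on the log2(intensity + 16) scale, on which the change of dim probe sets is understated. A difference was counted at 2-fold or more. The level filter required the highest of the 4 values to reach 20.9, the median of all values, which 13192 genes did. Of the 7 members, 5 passed it (Clu, Anxa1, Anxa3, Msln and Sprr1a), and Il33 and Gja1 did not. The scaling between the days is unknown, since the range from the 5th to the 95th percentile was 5.77 and 5.90 at day 4 (untreated and 4OHT, log2) but 6.89 and 6.73 at day 6. The 10 epithelial markers all passed the filter, with summed intensities from 16078 (untreated day 4) to 31282 (untreated day 6), which fits the tissue label. Of the markers of other cells, 6 of 10 for fibroblasts and muscle, 4 of 5 for endothelium and 3 of 6 measured for immune cells passed the filter. Their summed intensities on the 4 arrays were at most 253.5, 121 and 138, and the pan-leukocyte gene Ptprc was under the filter.

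**Figure D1:**
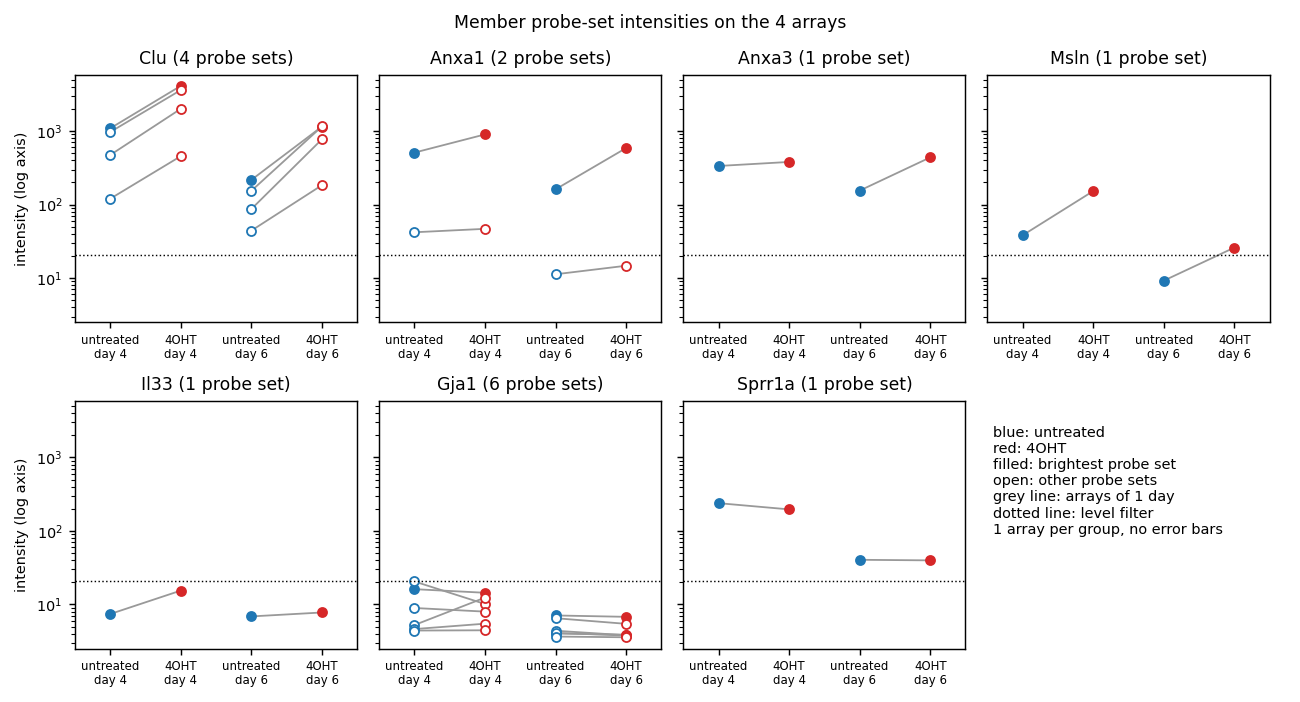
Intensity (log axis) of every member probe set on the 4 arrays, 1 panel per gene, with untreated arrays in blue and 4OHT arrays in red, joined within a day, and the level filter of 20.9 as a dotted line. The 4 Clu probe sets lie higher on the 4OHT array of both days, Sprr1a drops from day 4 to day 6 in both arms, and Il33 and Gja1 stay below the line.

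Clu encodes clusterin, a secreted chaperone. On its brightest probe set the intensity was 1093 in untreated and 4132 in 4OHT organoids at day 4, and 217 and 1153 at day 6. The 4OHT array was thus the higher one of each day, and the untreated array of day 6 was the lowest of the 4. The difference with 4OHT was 1.90 at day 4 (3.74-fold) and 2.33 at day 6 (5.01-fold). The other 3 Clu probe sets gave the same direction on both days. Over all 4 probe sets the difference lay between 3.47-fold and 4.14-fold at day 4 and between 3.31-fold and 7.67-fold at day 6, so the probe sets were closer together at day 4. All but the dimmest carry the suffix _x_at, given to probe sets that may also pick up other transcripts. The dimmest, whose suffix is _a_at, read 120 and 457 at day 4 and 44.3 and 184 at day 6. It gave 1.79 and 1.73, so that at day 6 the value depended on the probe set by more than 1.5-fold.

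Anxa1 and Anxa3 encode annexins, proteins that bind phospholipid membranes in the presence of calcium, and annexin A1 is known for limiting inflammation and promoting epithelial repair. Anxa1 read 510 in untreated and 901 in 4OHT organoids at day 4, and 161 and 587 at day 6. Its difference with 4OHT was 0.80 (1.75-fold) at day 4, short of 2-fold, and 1.77 (3.40-fold) at day 6. The second, dimmer Anxa1 probe set read 42.0, 46.8, 11.3 and 14.7 in the same order. It differed with 4OHT by only 0.11 and 0.17, so the size of the Anxa1 difference rests on the brighter probe set, and with the mean of both the day 6 value was 0.97.

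Anxa3, read by 1 probe set, differed with 4OHT mainly at day 6. Its intensities were 335 in untreated and 380 in 4OHT organoids at day 4, and 155 and 439 at day 6. The 2 arrays of day 4 were close, and at day 6 the untreated array was the lowest and the 4OHT array the highest of the 4. The difference was 0.17 (1.13-fold) at day 4 and 1.41 (2.66-fold) at day 6, and the change between the days, 1.24, was the largest among the member probe sets. Whether it exceeds the variation between cultures could not be tested with 1 array per group.

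Msln encodes mesothelin, a surface glycoprotein anchored by a lipid. It read 38.2 in untreated and 153 in 4OHT organoids at day 4, and 9.22 and 26.0 at day 6. Again the 4OHT array was the higher one of each day, but the untreated value of day 6 lay below the level filter. The difference was 1.64 (3.11-fold) at day 4 and 0.74 (1.66-fold) at day 6. The day 6 value depended on the pseudocount and was 1.40 with a pseudocount of 1. Mesothelin is also made by mesothelial cells, so other mesothelial markers were read on the same arrays. Wt1 and Lrrn4 were under the level filter, Upk3b differed with 4OHT by -0.09 and -0.14, and Krt5, which is also a basal cell keratin, by 0.39 and -0.07. The 4 of them summed to 93.9 and 105 at day 4 and 57.4 and 52.2 at day 6, untreated first.

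Sprr1a, the small proline-rich protein gene, did not share the difference with 4OHT. It read 238 in untreated and 196 in 4OHT organoids at day 4, and 40.4 and 39.7 at day 6, which is -0.26 and -0.02 on the log2 scale. The arrays of one day were alike and the days stood apart.

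Il33 encodes an alarmin cytokine that is stored in the nucleus and released by damaged cells. It read 7.41 and 15.4 at day 4 and 6.86 and 7.76 at day 6, untreated first. Its highest value was on the 4OHT array of day 4, and all 4 were below the level filter, so the differences of 0.43 and 0.06 are those of a dim probe set. Gja1 encodes connexin 43, a gap junction channel protein, and was read by 6 probe sets, none of which reached the filter on any array. Their intensities lay between 4.41 and 20.5 in untreated and between 4.44 and 14.4 in 4OHT organoids at day 4, and between 3.65 and 7.07 and between 3.57 and 6.77 at day 6. With 4OHT 3 of them were higher and 3 lower at day 4, within -0.48 and 0.42, and at day 6 all 6 lay between -0.07 and -0.01. With a pseudocount of 1 Il33 differed by 0.97 at day 4 and 0.16 at day 6. Whether Il33 or Gja1 differed with 4OHT is not settled at these intensities.

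At day 4, 2 of the 5 members that passed the filter (Clu and Msln) reached 2-fold higher with 4OHT, beside 1% of all genes, and 3 at day 6 (Clu, Anxa1 and Anxa3), beside 0.879%. None was 2-fold lower on either day, beside 1.22% and 2.97%, and 0.796% of all genes were lower on both. Clu was the only one of the 5 at 2-fold on both days, beside 0.205% of all genes. The members' median difference was 0.80 at day 4 and 1.41 at day 6, against 0.06 and -0.0044 over all genes past the filter. Nothing is read from these counts, since the same differences were known when the members were chosen. At a threshold of 1.5-fold, Clu, Anxa1 and Msln passed on both days. Of all genes, 7.87% passed that threshold upward at day 4 and 4.74% at day 6, and the share on both days was not counted. On the same pairs of arrays the signal of Actb fell off more steeply toward the 5' end with 4OHT (3' minus 5' larger by 0.94 at day 4 and 0.62 at day 6), and that of Gapdh by 0.87 and 0.56. The spiked controls differed with 4OHT by -0.38 (hybridization controls) and -0.46 (poly-A controls) at day 4 and by 0.91 and 1.39 at day 6, in mean log2 intensity. The part of these in the members' differences was not tested. In bulk organoids a larger share of cells of a type and more RNA per cell cannot be told apart.

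**Figure D2:**
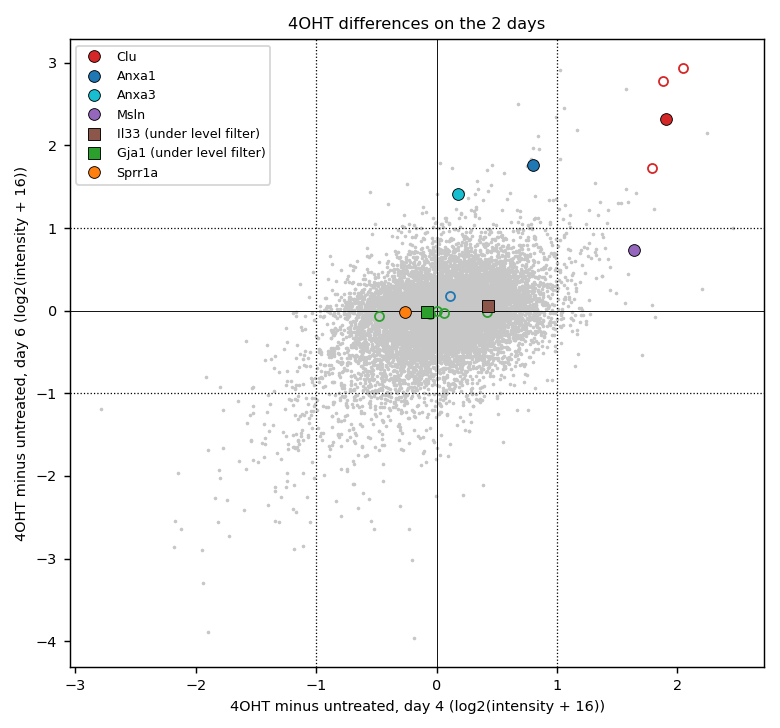
Difference of 4OHT from untreated at day 4 (x axis) and day 6 (y axis), in log2(intensity + 16), with each gene past the level filter as a grey dot, the members' brightest probe sets as filled symbols and their other probe sets as open circles. Dotted lines mark 2-fold. The 4 Clu probe sets lie beyond 2-fold on both axes, the brightest Anxa1 probe set and Anxa3 only on the day 6 axis, Msln only on the day 4 axis, and Sprr1a, Il33 and Gja1 within the lines.

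Over time the 5 members past the filter moved downward in untreated organoids, and 4 of them in 4OHT organoids. Untreated organoids had all 5 members past the filter at least 2-fold lower at day 6 than at day 4, beside 5.29% of all genes (24.1% passed 2-fold upward). Clu differed by -2.25, Sprr1a by -2.17, Anxa1 by -1.57, Msln by -1.10 and Anxa3 by -1.04. In 4OHT organoids 3 were at least 2-fold lower, beside 2.69% of all genes (16.4% passed 2-fold upward). These were Msln at -2.01, Sprr1a at -1.93 and Clu at -1.83, the members lower in both arms, beside 1.88% of all genes (14% were 2-fold higher in both). Anxa1 differed by -0.60 and Anxa3 by 0.20 in that arm. After quantile normalization Anxa1 was -1.01 there, which made the count 4, beside 8.05% of all genes. The dimmer Anxa1 probe set was 2-fold lower in both arms, at -1.09 in untreated and -1.03 in 4OHT organoids. The comparisons of the 2 arms share no array with each other, but each shares its arrays with the 4OHT comparisons above.

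The 5 members kept the downward direction in untreated organoids under both other scalings tried. The median of all genes in that comparison was 0.16 as deposited, -0.13 after quantile normalization and 0.27 after median centring. Under quantile normalization 12.0% of all genes passed 2-fold upward and 12.6% downward in untreated organoids, and 9.48% and 8.05% in 4OHT organoids. The 5 members were then still at least 2-fold lower in untreated organoids, with Clu at -2.87, Anxa1 at -2.20 and Anxa3 at -1.68. After median centring Clu, Anxa1 and Sprr1a passed 2-fold, beside 3.94% of all genes, and Msln and Anxa3 did not. Msln was the member most affected by the pseudocount, with -1.94 at a pseudocount of 1 and -0.48 at 64 in untreated organoids. Sprr1a became -1.53 and -1.33 in the 2 arms at a pseudocount of 64. The Clu probe set without the _x_at suffix gave -1.18 in untreated organoids. Anxa3 in 4OHT organoids was 0.20 as deposited and -0.27 after quantile normalization, so its direction over time in that arm is not settled.

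The position of each probe set among all probe sets of its own array, which needs no scaling between arrays, gave the same lowest array for Clu, Anxa1, Anxa3 and Msln. The brightest Clu probe set stood above 98.6% and 99.6% of probe sets at day 4 (untreated and 4OHT) and above 88.0% and 98.1% at day 6. Anxa1 stood above 97.0% and 98.2%, then 84.7% and 96.1%. Anxa3 stood above 95.3% and 95.7%, then 84.2% and 94.6%. For these 3 genes the untreated array of day 6 had the lowest position. Set side by side on the brightest probe sets, 4OHT organoids at day 6 read 1.05 times the untreated day 4 value for Clu, 1.15 times for Anxa1 and 1.29 times for Anxa3 on the log2(intensity + 16) scale (0.76, 0.80 and 0.89 after quantile normalization). The other Clu probe sets gave 1.19, 1.61 and 1.46 times and the dimmer Anxa1 probe set 0.53 times, so these ratios depend on the probe set. They also change day and arm at once and cross the unknown scaling between the days. Msln stood above 66.4% and 89.0% at day 4 and above 30.1% and 56.4% at day 6. Its 4OHT value of day 6 was 0.77 times the untreated value of day 4 (0.73 after quantile normalization). Sprr1a stood above 93.4% and 91.3% at day 4 and above 64.2% in both arms at day 6, at 0.22 times the untreated day 4 value in 4OHT organoids.

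**Figure D3:**
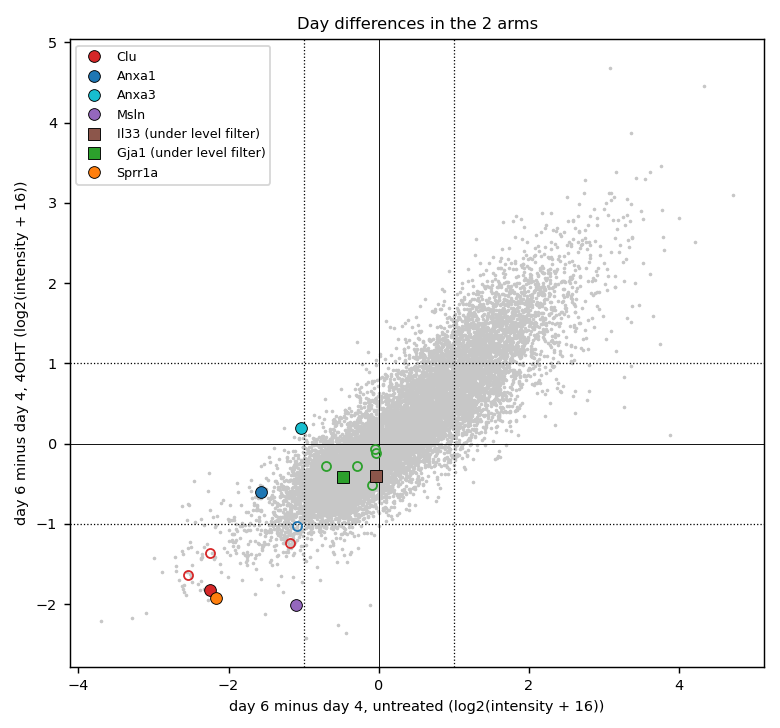
Difference of day 6 from day 4 in untreated (x axis) and 4OHT organoids (y axis), in log2(intensity + 16), drawn as for the 4OHT differences. Clu, Sprr1a and Msln lie beyond 2-fold downward on both axes, the brightest Anxa1 probe set and Anxa3 only on the untreated axis, and the cloud of all genes reaches further up than down.

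Marker lists of the cell types differed between the days as well, in both directions. Of the 10 epithelial markers, 7 were at least 2-fold higher at day 6 in untreated organoids, beside 24.1% of all genes. In 4OHT organoids 5 were, beside 16.4%. None was 2-fold lower, beside 5.29% and 2.69%, and the medians were 1.22 and 0.94. Over all genes past a level filter of 65.1 the medians were 0.65 and 0.39. Epcam, an epithelial adhesion molecule, read 906 and 891 at day 4 and 5080 and 4549 at day 6, untreated first. The keratin gene Krt18 was an exception at -0.47 and -0.09. Markers of other cells that passed the filter were lower at day 6 in untreated organoids, with medians of -0.59 for fibroblasts and muscle, -0.73 for endothelium, -0.58 for immune cells and -0.50 for mesothelium, and none of them reached 2-fold. In 4OHT organoids these medians were -0.49, -0.21, -0.51 and -0.76, again with none at 2-fold. These markers were dim, and their falls are understated on this scale. The lower part of each whole array was also lower at day 6. The 5th percentile of intensity was 5.75 and 5.61 at day 4 and 4.38 and 4.43 at day 6, untreated first. The median of all probe sets was 22.0 and 21.9, then 19.3 and 19.5. No background at the level of these markers was computed, so no loss of other cells is read from their medians. The mesothelial marker Upk3b read 36.1 and 32.8 at day 4 and 11.4 and 8.76 at day 6, untreated first (-0.93 and -0.98). Msln read 38.2 and 153, then 9.22 and 26.0. Krt5, the other mesothelial marker past the filter, differed over time by -0.07 and -0.54. The signal of Actb also fell off less steeply toward the 5' end at day 6, its 3' minus 5' difference changing by -1.24 in untreated and by -1.56 in 4OHT organoids from day 4 to day 6. The hybridization controls differed between the days by -2.36 in untreated and -1.07 in 4OHT organoids, and the poly-A controls by -2.87 and -1.02, in mean log2 intensity. Both kinds of control were lowest on the untreated array of day 6, as were Clu, Anxa1, Anxa3 and Msln. The part of these in the members' differences over time was not tested.

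The promoters of 2 members past the level filter, Anxa1 (at least 2-fold higher with 4OHT at day 6 on its brightest probe set, on chromosome 19) and Sprr1a (lower at day 6 in both arms with no 4OHT difference past 2-fold, on chromosome 3), are shown to set side by side the letters before the starts of genes that behaved differently. Sequences are from RefSeq (GRCm38.p6), 250 bases upstream of the start, 5′ to 3′ on the gene's own strand, which is the minus strand for both. Capitals mark matches, on either strand, to TGANTCA (AP-1), GGAATG (TEAD) and ATCAAAG (TCF/LEF). Anxa1 spans chr19:20390672-20390921 and Sprr1a chr3:92485882-92486131.
Anxa1: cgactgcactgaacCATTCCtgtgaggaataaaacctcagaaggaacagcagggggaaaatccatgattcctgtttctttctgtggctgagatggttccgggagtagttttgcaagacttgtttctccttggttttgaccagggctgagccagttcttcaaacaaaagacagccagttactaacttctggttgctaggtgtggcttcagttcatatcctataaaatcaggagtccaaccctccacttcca
Sprr1a: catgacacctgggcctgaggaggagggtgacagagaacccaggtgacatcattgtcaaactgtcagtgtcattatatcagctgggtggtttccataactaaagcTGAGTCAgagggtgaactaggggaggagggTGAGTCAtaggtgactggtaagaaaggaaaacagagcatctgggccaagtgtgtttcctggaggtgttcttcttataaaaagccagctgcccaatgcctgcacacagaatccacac
Anxa1 held 1 match to the TEAD letters, and Sprr1a held 2 matches to the AP-1 letters and none to the others. No match overlapped another. Of 32851 windows of this length, 12.6% held the TEAD letters, 6.75% the AP-1 letters and 3.21% the TCF/LEF letters. A match is a description of the letters and not a binding site. Among the other members with a window, each Il33 window held 1 match to the TEAD letters and the Gja1 window 1 to the AP-1 letters. The Spp1 windows held none. Since the differences of Il33 and Gja1 are not settled at their intensities, no link between letters and behaviour is read from the pair shown.

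The other genes of this epithelial state, listed apart from the members, gave a mixed picture. This list too was chosen with earlier results of these data known, so its counts and medians are a description. Of 18 listed, 15 were measured and all passed the level filter, while 3 are not analysed here. With 4OHT 3 were at least 2-fold higher and 1 lower at day 4, beside 1% and 1.22% of all genes. At day 6 it was again 3 higher and 1 lower, beside 0.879% and 2.97%. None was 2-fold higher on both days and 1 was lower on both, beside 0.205% and 0.796%. The medians were 0.51 and 0.40, against 0.06 and -0.0044 over all genes. Cldn4, a tight junction protein gene, differed by 0.85 and 1.96 on the days in turn. The keratin gene Krt7 differed by 0.71 and 1.04, and S100a6, a calcium-binding protein gene, by 0.99 and 0.68. Emp1, an epithelial membrane protein gene, was the lower one at -1.04 and -1.21. Ccn2 (2.20 and 0.26), Krt4 (1.23 and 0.46), Ctsl (1.22 and -0.05) and Krt23 (0.32 and 1.23) make up the rest of those past 2-fold higher on 1 day and were picked once their values were known. Over time their differences lay on both sides of 0. In untreated organoids 2 were at least 2-fold higher and 1 lower at day 6, beside 24.1% and 5.29% of all genes. In 4OHT organoids 2 were higher and 2 lower, beside 16.4% and 2.69%. The 2 lower were Ccn2 (-2.37) and Ankrd1 (-1.13). Each reached the level filter only on the 4OHT array of day 4. Nothing is therefore read from their falls from that array, nor from the day 4 difference of Ccn2 with 4OHT. The medians of the list over time were -0.07 and -0.12, against -1.57 and -1.83 over the 5 members past the filter.

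**Figure D4:**
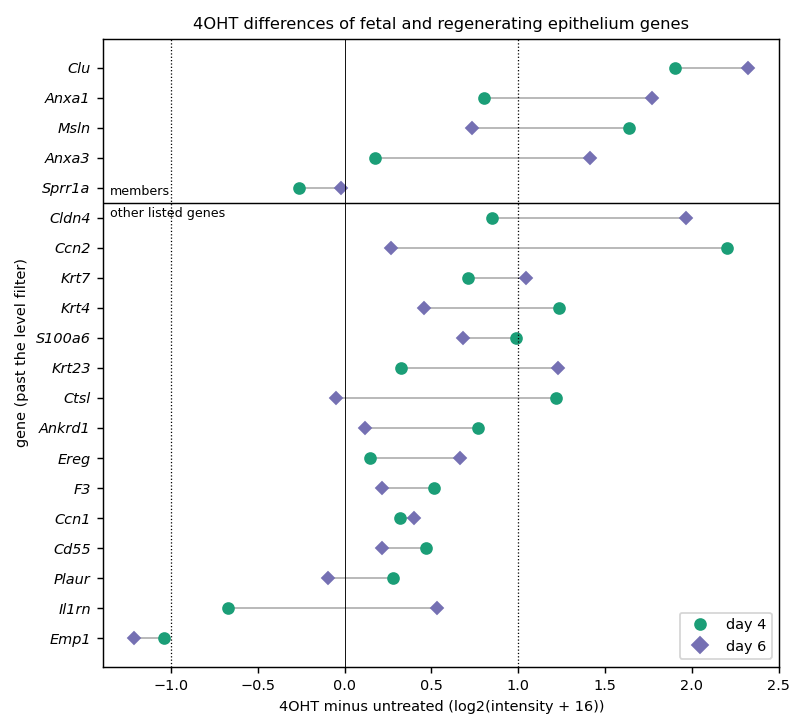
Difference of 4OHT from untreated at day 4 (circles) and day 6 (diamonds), in log2(intensity + 16), for the 5 members past the level filter (above the line) and the 15 other listed genes (below it), with dotted lines at 2-fold. Clu is the only gene drawn beyond 2-fold higher on both days, and Emp1 the only one beyond 2-fold lower on both.

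Genes related to the members by family or binding were read from separate lists, also chosen with earlier results of these data known. Over all genes past the filter, 1% were at least 2-fold higher and 1.22% lower with 4OHT at day 4. At day 6 these shares were 0.879% and 2.97%, and for both days together 0.205% and 0.796%. They stand beside the 4OHT counts of each list below. Among the other annexins and their partners, 9 of 11 measured passed the filter, with none at least 2-fold higher and 1 lower with 4OHT at day 4, and 1 higher and 1 lower at day 6. Anxa13, an annexin of intestinal epithelium, was lower on both days (-1.13 and -1.48), Anxa2 differed by -0.57 and -0.40, Anxa4 by -0.40 and -0.31 and Anxa5 by 0.61 and 0.54. Anxa10 was the one past 2-fold higher at day 6 (1.12, with 0.07 at day 4) and was picked once its values were known. It read 47.4, 50.5, 8.82 and 37.8 in the order untreated and 4OHT at day 4, then day 6, so that, as for Anxa1 and Anxa3, the untreated array of day 6 was the lowest.

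Of the receptors that bind clusterin, 3 of 4 measured passed the filter and none reached 2-fold with 4OHT on either day. None of them had the same direction on both days. Of the genes of the IL-33 receptor and IL-1 family, 5 of 6 measured passed the filter and none reached 2-fold, with Il1rap, the shared accessory chain of these receptors, at -0.41 and -0.15 and the cytokine gene Il1b at -0.01 and -0.05. Il1rl1, the IL-33 receptor itself, is not analysed here.

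Among osteopontin receptors and the mesothelin-binding mucin gene Muc16, 7 of 9 passed the filter and 1 reached 2-fold higher on each day. That gene was Cd44, which also binds hyaluronan, at 2.83-fold and 2.47-fold. The integrin genes Itgav (0.94 and 0.15), Itgb6 (0.23 and 0.36) and Itga9 (0.17 and 0.24) stayed below 2-fold, and Muc16 was under the level filter. Of the connexins and pannexin, 4 of 8 measured passed the filter and none reached 2-fold, with Gjb1 at -0.13 and -0.73 and Gjb2 at -0.27 and -0.10.

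Of the Ly6 family 5 of 7 measured passed the filter and none reached 2-fold with 4OHT, with Lynx1 at -0.01 and -0.04. In untreated organoids 2 of the 5 were at least 2-fold lower at day 6, beside 5.29% of all genes. They were Ly6e (-1.59) and Ly6d (-1.02), picked once their values were known. In 4OHT organoids 1 was, beside 2.69%, with Ly6e at -1.02 and Ly6d at -0.38. Of the cornified envelope genes, the class of Sprr1a, 4 of 8 measured passed the filter and none reached 2-fold with 4OHT or over time. Sprr3 differed with 4OHT by 0.22 and 0.10. These 4 genes were dim, at 19.2 to 43.3 on the untreated array of day 4, against 238 for Sprr1a. A fall from such intensities is understated on this scale, so their time course cannot be set against the drop of Sprr1a.

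The genes with profiles nearest to that of Clu were Atg9b, Thbs1, Clps, Smim38 and Nupr1, by the Euclidean distance between the 4 log2 values less their mean (0.63, 0.72, 0.77, 0.87 and 0.89). Atg9b, an autophagy gene, read 140 and 723 at day 4 and 42.4 and 243 at day 6, untreated first. Thbs1, a matrix glycoprotein gene, read 78.8, 283, 14.4 and 65.6 in that order. Clps, the gene of the pancreatic lipase cofactor colipase, read 574, 1042, 80.3 and 402. Smim38, a gene of a small membrane protein, read 260, 546, 55.7 and 241, and Nupr1, a stress-induced nuclear protein gene, read 692, 1392, 150 and 823. Of the members, Msln (1.24) and Anxa1 (1.29) were nearest to Clu, with 16 and 18 genes nearer than each. Anxa3 (2.13) and Sprr1a (2.26) had 375 and 636 genes nearer. Each of these counts includes Clu itself. These distances cover 4 arrays and describe likeness of profile only.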

How the data were processed

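Gene expression was measured in 4 samples, 1 array for each of 4 groups, so samples are single and no test was made. Per the labels' protocols, 100 ng of total RNA per sample went into biotin labelling from the 3' end. The values deposited are intensities of whole probe sets on a linear scale. The authors' background correction, normalization, summarisation and software are not given in the sources used here.

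Of 45101 probe sets, 34958 name 1 gene, 932 several and 9211 none in the platform annotation, and control, multi-gene and unnamed probe sets were left out. Of those with 1 gene, 34741 outside the controls matched a RefSeq record by gene identifier and no symbol differed. Values were moved to log2(intensity + 16), and a gene stands for its probe set with the highest mean log2 value. Percentages of genes called are over the 13192 genes past the level filter. Members and lists were chosen with earlier results of these data known. Named genes were all members, up to 4 of each list with the largest smaller same-direction 4OHT difference, and the 5 nearest to Clu, passing over predicted gene models and clone names. The contrast code was tested on simulated data. Alternatives were pseudocounts of 1 and 64, quantile normalization, median centring, no level filter or one of 65.1 (the 75th percentile), averaging a gene's probe sets, no _x_at and _s_at probe sets, and thresholds of 1.5-fold and 3-fold. Python 3.11.15, pandas 2.3.3, numpy 2.4.6 and matplotlib 3.10.9 were used.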

Additional observations from a re-analysis of the deposited data

Results flagged for a closer look

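Anxa3 moved in opposite directions over time in the 2 arms. Day 6 against day 4 was -1.04 in untreated and 0.20 in 4OHT organoids (log2(intensity + 16), 1 array each). The difference between the arms was not tested, and after quantile normalization both values were below 0 (-1.68 and -0.27).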

How the results depend on the processing

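The count of members at least 2-fold higher with 4OHT on both days, 1 as reported, was 2 with a pseudocount of 1 and 3 at a threshold of 1.5-fold. Of all genes, 3.31% at day 4 and 1.48% at day 6 were then higher with a pseudocount of 1, and 7.87% and 4.74% at 1.5-fold. The count at least 2-fold lower at day 6 in untreated organoids, 5 as reported, was 3 with a pseudocount of 64 and with median centring and 2 at a threshold of 3-fold. The share of all genes lower there, 5.29% as reported, was 2.06%, 3.94% and 1.14% under these settings in turn. The counts of the other 3 comparisons stayed within 1.5 times of the reported ones under the 10 alternatives. Of 168 recomputed member differences, 13 moved by more than 1.5-fold and 3 changed sign (Anxa3 over time in 4OHT organoids, and Il33 over time in untreated organoids under quantile normalization and median centring), and none of those past 2-fold changed sign. With 4OHT at day 6, quantile normalization gave 141 genes higher and 268 lower, against 116 and 392 as deposited. No paired analysis was possible because each group has 1 array and the labels give no replicate numbers. No array could be left out, for the same reason. The low intensities of Il33 and Gja1, and of Msln at day 6, limit what can be said of them.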
